A study of Mus musculus with 2 samples.

Results

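The platelet-derived growth factor (PDGF) system is described here across the cell types of aged mouse muscle. Its 6 genes are the ligands Pdgfa, Pdgfb, Pdgfc and Pdgfd and the receptors Pdgfra and Pdgfrb, which were taken by gene symbol from the 32285 genes of the count tables. Droplet single-cell RNA-Seq was measured on live-sorted cells of hindlimb muscle from female C57Bl/6J mice aged 24 months. One group had received 3 intramuscular injections of all-trans retinoic acid (ATRA) together with CD3254, an agonist of the retinoid X receptor RXR-alpha, and BMS961, an agonist of the retinoic acid receptor RAR-gamma (ATRA+agonist), and the other received DMSO alone (DMSO vehicle). Each group was 1 library that pooled 2 mice whose cells cannot be separated, so differences between the libraries could not be tested, and no p-value is given. Levels are unique molecular identifiers (UMIs) of a gene per 1000000 UMIs of the cell class (CPM). They carry exact Poisson 95% intervals, shares of cells carry exact binomial (Clopper-Pearson) 95% intervals, and ratios carry exact conditional 95% intervals. All of these cover counting error only, not the spread between mice.

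PDGF ligands are secreted dimers that bind and pair receptor tyrosine kinases on neighbouring cells. PDGF-A acts through the alpha receptor and PDGF-B through both receptors, whereas PDGF-C and PDGF-D are secreted with a CUB domain that a protease must remove before they can bind, PDGF-C mainly to the alpha and PDGF-D mainly to the beta receptor. In skeletal muscle the alpha receptor is the usual surface marker of fibro-adipogenic progenitors (FAPs), the mesenchymal cells that make matrix and can turn into fat or scar, and the beta receptor is a marker of the mural cells that wrap small vessels. PDGF-B from endothelium is known for recruiting those mural cells.

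After filtering, 6907 ATRA+agonist cells and 6953 DMSO vehicle cells were kept, at a median of 4701 and 4853 UMIs per cell. Of the kept barcodes, 8 had the same sequence in both libraries. Cells were clustered without the 6 genes and without the wider PDGF list described below, and clusters were named from markers that included none of the 6. Of 27 clusters, 23 were named and they made 13 classes, of which 10 had at least 50 cells in each library. Barcodes with fewer than 300 genes, 2428 and 7940 in number, held 96.4% and 96.6% hemoglobin UMIs, and none of the 6 genes was above 0.589 CPM in them. That CPM counts hemoglobin in its denominator, which lowers every other gene, so it gives no background level for the classes. Pdgfd, for example, had 9 and 22 UMIs in these barcodes. B cell-like cells, which should lack the PDGF receptors, served as the background for shares of cells with a UMI. Their median depth was 5370 and 4356 UMIs, and the largest share for any of the 6 genes in them was 1.41%, for Pdgfra and for Pdgfb in DMSO vehicle, from 1 of 71 cells each.

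**Figure D1:**
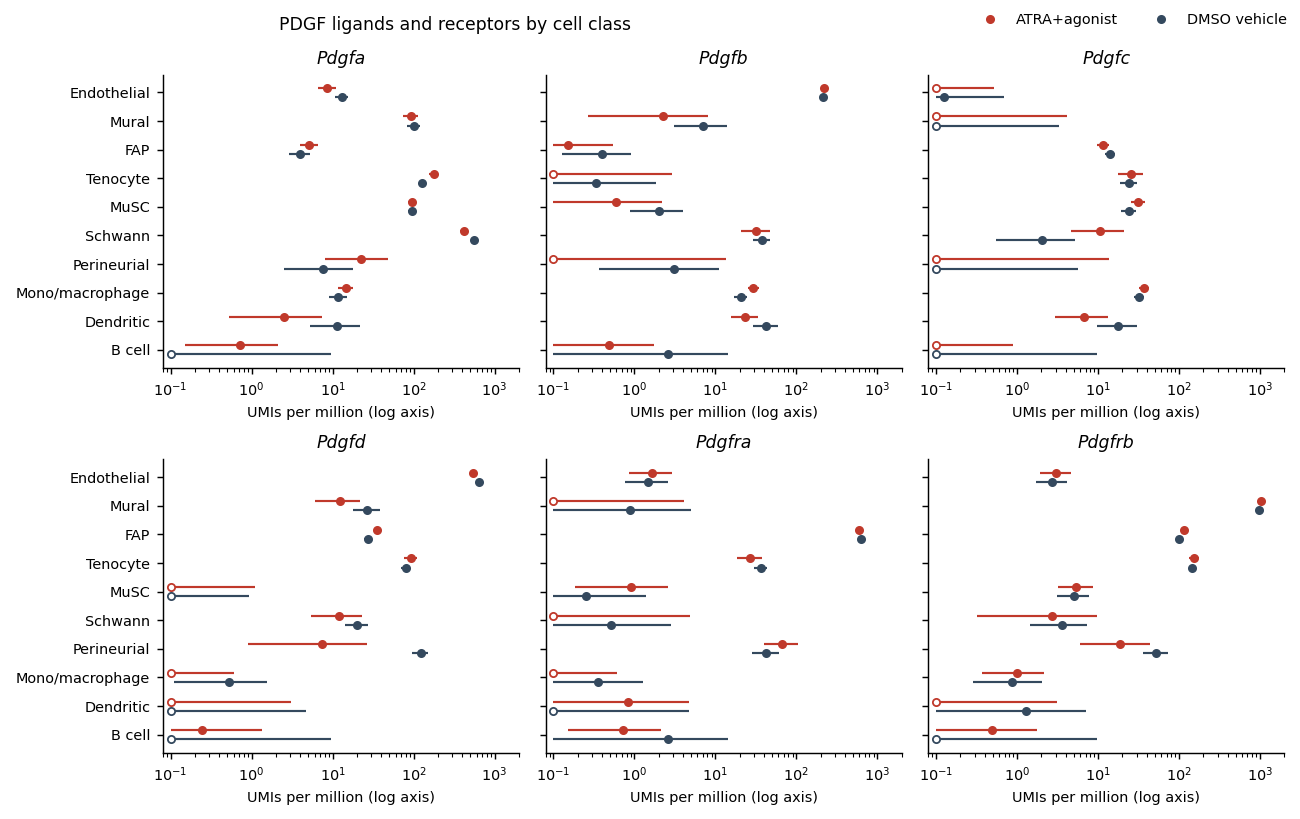
Level of each PDGF gene in the 10 classes with at least 50 cells in each library, in UMIs per 1000000 on a log axis. Points are the 2 libraries, lines are exact Poisson 95% intervals and open circles are classes with 0 UMIs, placed at the left edge of the axis. Pdgfra was highest in FAP-like cells (603 and 627 CPM), Pdgfrb in Mural-like cells (1019 and 968 CPM), Pdgfb and Pdgfd in Endothelial-like cells, Pdgfa in Schwann-like cells and Pdgfc in Monocyte or macrophage-like cells.

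The alpha receptor was found mainly in FAP-like cells. Pdgfra, at 75152292 to 75198215 on the forward strand of chromosome 5 (GRCm38), stood at 603 CPM (590 to 616) in the 1295 FAP-like cells of ATRA+agonist and at 627 CPM (614 to 641) in the 1541 of DMSO vehicle. A Pdgfra UMI was found in 95.8% and 94.2% of these cells, whose median depth was 9899 and 7921 UMIs, against 0.470% and 1.41% of B cell-like cells. FAP-like cells held 95.4% and 92.8% of all Pdgfra UMIs in the libraries. Tenocyte-like cells, the tendon fibroblasts, came next among classes with a comparable makeup in both libraries, at 27.1 and 36.3 CPM, so that FAP-like cells were 22.2-fold higher (15.9 to 32.1) in ATRA+agonist and 17.3-fold higher (14.3 to 21.1) in DMSO vehicle. When each cell was assigned by its own markers instead of by its cluster, the contrast over both libraries summed was 3.12 on the log2 scale, against 4.19 by cluster. Perineurial-like cells, the sheath cells of nerve, read 66.7 and 42.7 CPM from 18 and 28 UMIs, and each of the other 7 classes was at or below 2.59 CPM.

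Within the FAP-like class, Pdgfra separated 1 cluster from the other two. It was 640 and 660 CPM in the cluster led by Cxcl14 and Mme, 694 and 680 CPM in the cluster marked by Gdf10 and Fst, and 370 CPM (346 to 395) and 399 CPM (371 to 429) in the cluster marked by Pi16 and Sema3c, which are adventitial fibroblast markers. The Gdf10 and Fst cluster was 1.88-fold (1.74 to 2.03) above the Pi16 and Sema3c cluster in ATRA+agonist and 1.70-fold (1.57 to 1.85) above it in DMSO vehicle. A small cluster that stayed unnamed, led by Tenm2, Apod and Sbspon with 43 and 69 cells, carried 712 and 650 CPM of Pdgfra, and another led by Car3 and Cfd with 63 and 107 cells carried 352 and 378 CPM.

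The beta receptor was highest in Mural-like cells and also present in the fibroblast classes. Pdgfrb, at 61045150 to 61085061 on the forward strand of chromosome 18, was 1019 CPM (954 to 1087) in the 220 Mural-like cells of ATRA+agonist and 968 CPM (911 to 1028) in the 294 of DMSO vehicle, and 84.1% and 89.1% of these cells had a UMI at a median depth of 3791.5 and 3764.5. Tenocyte-like cells followed at 152 and 145 CPM, and Mural-like cells stood 6.69-fold above them in both libraries (5.72 to 7.86 and 5.98 to 7.5). FAP-like cells came after them at 116 CPM (111 to 122) and 99.3 CPM (93.9 to 105). Because FAP-like cells were many and deep, they nevertheless held 56.0% of all Pdgfrb UMIs in ATRA+agonist and 42.9% in DMSO vehicle, more than the 33.5% and 37.1% in Mural-like cells.

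Mural-like cells were split into pericyte-like and smooth muscle-like subclusters. Pericytes sit on capillaries, and smooth muscle surrounds arterioles. The smooth muscle-like subcluster had 6 smooth muscle markers enriched over other mural cells, but also 9 pericyte markers enriched over all other cells. Each pericyte-like subcluster had 8 or 9 pericyte markers enriched over all other cells but 0 over other mural cells. The split thus rests on the smooth muscle markers. In pericyte-like cells, 194 and 272 in number, Pdgfrb was 1049 and 993 CPM. In the few smooth muscle-like cells, 26 and 22, it was 359 CPM (196 to 603) and 411 CPM (251 to 634) from 14 and 20 UMIs. The pericyte-like level was 2.92-fold (1.73 to 5.36) and 2.42-fold (1.56 to 3.98) that of smooth muscle-like cells, so the intervals of both libraries lay above 1.

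Many FAP-like cells carried UMIs of both receptors. At full depth, 60.6% of FAP-like cells in ATRA+agonist and 48.3% in DMSO vehicle had at least 1 UMI of each. The product of the separate shares was 59.9% and 47.9%. With Pdgfra in 95.8% and 94.2% of these cells, the share with both could differ little from the product, so nothing is read from that closeness. Since depth differed between the libraries, every cell was also thinned to 2000 UMIs, which left out 17 and 20 shallower FAP-like cells. The share with both receptors was then 14.7% (12.8 to 16.8) and 11.8% (10.2 to 13.5), beside products of 15% and 11.8%. Thinned FAP-like cells had Pdgfra in 67.0% and 67.9% and Pdgfrb in 22.4% and 17.4%. At 2000 UMIs, detection of the receptors in the same FAP-like cell was therefore near what separate detection gives, in either library. In thinned Mural-like cells Pdgfrb was found in 82.6% and 81.1%, and Pdgfra in 0 of 178 and 1 of 249 cells.

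Pdgfb, the ligand endothelium uses to recruit pericytes, was an endothelial transcript. The gene lies at 79995874 to 80014977 on the reverse strand of chromosome 15. Its level was 219 CPM (208 to 230) in 2423 ATRA+agonist and 217 CPM (207 to 227) in 2242 DMSO vehicle Endothelial-like cells, which held 84.2% and 84.1% of its UMIs. A UMI was seen in 39.7% and 46.3% of these cells, at the low median depth of 2851 and 3354.5. Schwann-like (32 and 37.2 CPM), Dendritic-like (23.5 and 42.0 CPM) and Monocyte or macrophage-like cells (29.5 and 20.7 CPM) formed a lower tier. In ATRA+agonist the intervals of all neighbours in this tier overlapped, whereas in DMSO vehicle Monocyte or macrophage-like cells lay below the other two. Endothelial-like cells were 6.84-fold (4.58 to 10.7) and 5.82-fold (4.61 to 7.46) above Schwann-like cells. In FAP-like and Mural-like cells, where the receptors were high, Pdgfb was 0.152 and 0.395 CPM and 2.23 and 7.13 CPM.

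Pdgfd, whose protein needs protease activation, was also highest in Endothelial-like cells. The gene spans 210 kb at 6168584 to 6378850 on the forward strand of chromosome 9. Endothelial-like cells held 83.6% and 78.8% of its UMIs, at 549 CPM (532 to 567) in ATRA+agonist and 645 CPM (628 to 663) in DMSO vehicle, with a UMI in 46.3% and 56.7% of cells. Among classes with a comparable makeup in both libraries, Tenocyte-like cells followed at 93.2 and 80 CPM and FAP-like cells at 35.3 and 27.1 CPM. Perineurial-like cells had 7.41 CPM from 2 UMIs in ATRA+agonist and 122 CPM from 80 UMIs in DMSO vehicle, where they lay above Tenocyte-like cells. Muscle stem cell-like (MuSC-like) and Dendritic-like cells had 0 UMIs in both libraries. The Poisson interval of MuSC-like cells in ATRA+agonist reached 1.11 CPM.

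Pdgfd and Pdgfb ordered the endothelial clusters differently. Arterial endothelial-like cells, 118 and 135 in number and marked by genes such as Gja5 and Sema3g, carried Pdgfd at 1306 CPM (1220 to 1397) and 1351 CPM, with a UMI in 90.7% and 91.9% of cells. Capillary endothelial-like cells carried 511 and 560 CPM, so the arterial level was 2.56-fold (2.37 to 2.76) and 2.41-fold (2.23 to 2.62) higher. Pdgfb went the other way, at 182 and 157 CPM in arterial and 231 and 270 CPM in capillary cells, which were 1.26-fold (1.05 to 1.54) and 1.72-fold (1.41 to 2.11) above arterial cells. Venous endothelial-like cells were compared in DMSO vehicle only, where 82 cells were found against 1 in ATRA+agonist. There Pdgfd was 278 CPM and Pdgfb 52.0 CPM, and capillary cells had 5.20-fold (3.74 to 7.45) as much Pdgfb. Interferon-activated endothelial-like cells, 83 and 982 in number, read 640 and 686 CPM of Pdgfd and 187 and 231 CPM of Pdgfb.

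**Figure D2:**
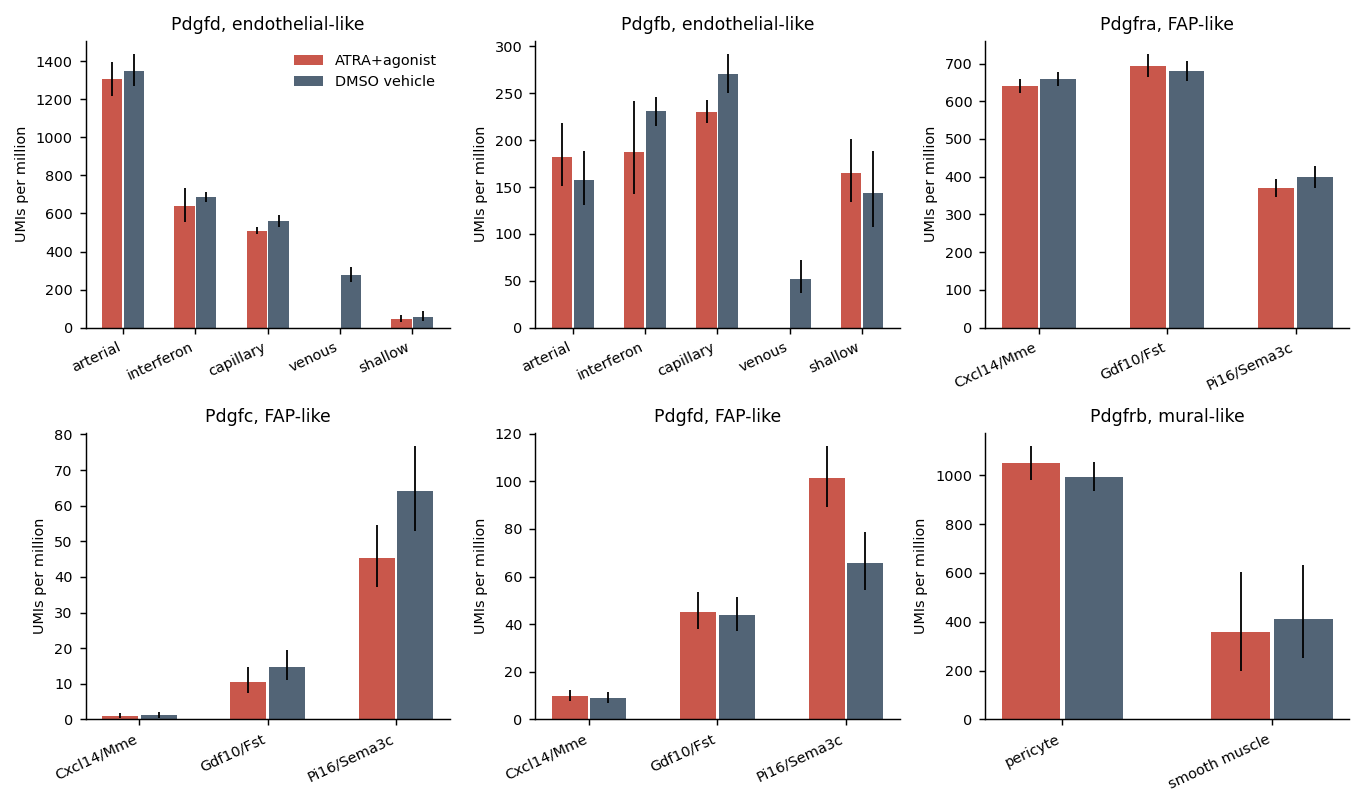
PDGF genes within the endothelial, FAP and mural groups, in UMIs per 1000000. Bars are the 2 libraries and black lines are exact Poisson 95% intervals. Pdgfd was highest in arterial endothelial-like cells (1306 and 1351 CPM) while Pdgfb was higher in capillary than in arterial cells. Among FAP-like clusters Pdgfra was lowest, and Pdgfc and Pdgfd highest, in the Pi16 and Sema3c cluster. The venous cluster is drawn for DMSO vehicle only.

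A shallow endothelial cluster had little Pdgfd but retained Pdgfb. This cluster, of 637 and 356 cells, had endothelial markers and a median UMI count that stayed below its library's median even when multiplied by 3. Pdgfd was 45.9 and 55.2 CPM in it, and capillary cells were 11.1-fold (7.62 to 16.9) and 10.1-fold (6.54 to 16.7) higher, whereas for Pdgfb they were only 1.40-fold (1.14 to 1.73) and 1.88-fold (1.42 to 2.55) higher. Malat1, a nuclear RNA, was 895 and 1375 CPM in the shallow cluster against 20489 and 20182 CPM in capillary cells, and ribosomal protein genes made 19.4% and 20.9% of its UMIs against 6.93% and 7.25%. An unnamed cluster led by Dach1, singled out after its values were seen because Pdgfd was among its leading genes, had 5 of 9 endothelial markers in 124 and 232 cells at a median of 1169.5 and 1873 UMIs. It carried 908 CPM (769 to 1064) and 1387 CPM (1283 to 1497) of Pdgfd, with Malat1 at 25379 and 39044 CPM and ribosomal protein genes at 4.05% and 2.40% of UMIs. Pdgfd and the nuclear RNA were thus low together in the shallow cluster and high together in the unnamed cluster, and the part of RNA quality in the level of Pdgfd was not tested.

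**Figure D3:**
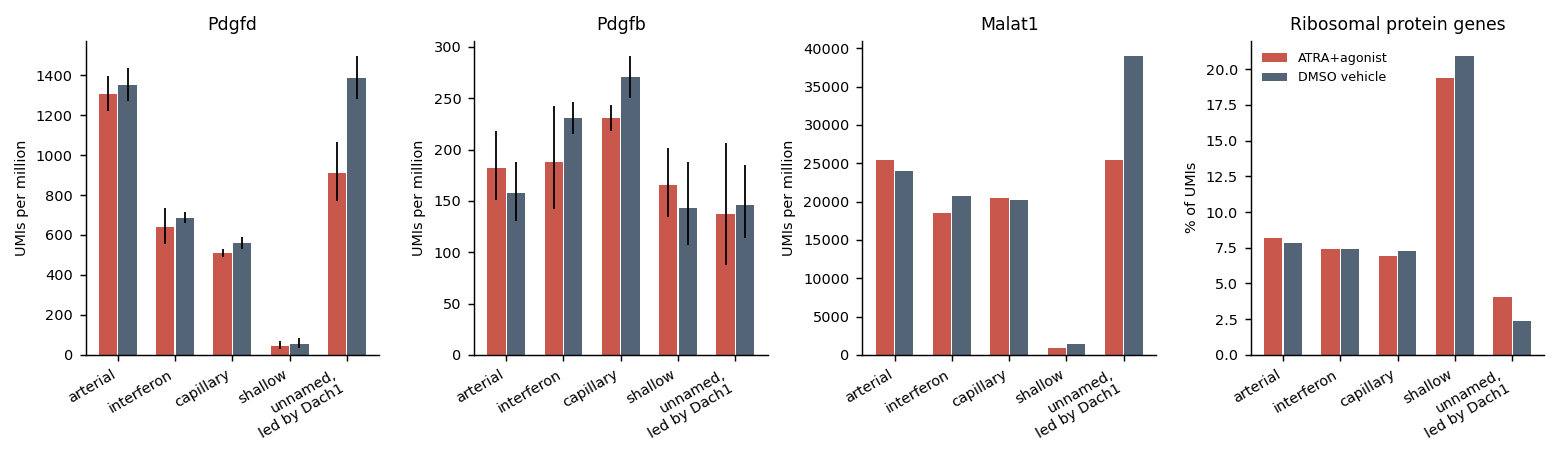
Pdgfd, Pdgfb and Malat1 in UMIs per 1000000 and ribosomal protein genes in % of UMIs, in 4 named endothelial clusters and the unnamed cluster led by Dach1. Bars are the 2 libraries and black lines, for the PDGF genes, are exact Poisson 95% intervals. In the shallow cluster Pdgfd (45.9 and 55.2 CPM) and Malat1 (895 and 1375 CPM) were both low, whereas Pdgfb stayed at 165 and 144 CPM.

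Pdgfa, the ligand of the alpha receptor, was highest in glia. It lies at 138976014 to 138997370 on the reverse strand of chromosome 5 and stood at 421 CPM (376 to 470) in 134 Schwann-like cells of ATRA+agonist and 560 CPM (528 to 594) in 385 of DMSO vehicle. A UMI was found in 61.2% and 64.4% of these cells at a median depth of 5323.5 and 4656. Tenocyte-like cells were next at 178 CPM (155 to 203) and 128 CPM (116 to 142), and Schwann-like cells stood 2.37-fold (1.99 to 2.83) and 4.37-fold (3.88 to 4.92) above them. MuSC-like cells, the stem cells of the fiber, were at 95.2 and 94.8 CPM with a UMI in 34.8% and 29.8% of cells, and Mural-like cells were at 92.4 and 101 CPM. The intervals of MuSC-like and Mural-like cells overlapped in both libraries, and those of Tenocyte-like and Mural-like cells overlapped in DMSO vehicle. The other 6 classes were at or below 22.2 CPM, FAP-like cells at 5.17 and 3.95 CPM.

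The 2 Schwann-like clusters carried different amounts of Pdgfa. In the cluster led by Il1rapl1, Csmd3 and Grik2 the level was 621 CPM in 46 ATRA+agonist and 827 CPM in 180 DMSO vehicle cells. In the other Schwann-like cluster it was 309 CPM in 88 and 243 CPM in 205 cells. The Il1rapl1 cluster was 2.01-fold (1.6 to 2.53) and 3.41-fold (2.93 to 3.97) higher. Among Mural-like cells, the smooth muscle-like cells had 282 and 164 CPM from 11 and 8 UMIs, and pericyte-like cells had 83.8 and 97.9 CPM. The smooth muscle-like level was 3.37-fold (1.61 to 6.4) that of pericyte-like cells in ATRA+agonist and 1.68-fold (0.707 to 3.43) in DMSO vehicle, where the interval included 1. The smooth muscle-like UMIs came from 5 and 6 cells, and the largest single cell gave 54.5% and 37.5% of them. The intervals treat UMIs as independent, so no order is read from them here.

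Pdgfc, the other protease-activated ligand and one that binds the alpha receptor, had low levels in several unrelated classes. The gene spans 178 kb at 81036416 to 81214040 on the forward strand of chromosome 3. Monocyte or macrophage-like cells had 37.1 and 32.3 CPM, MuSC-like cells 31.5 and 23.8 CPM, Tenocyte-like cells 25.5 and 24.0 CPM and FAP-like cells 11.5 and 14.1 CPM. The intervals of the 3 highest classes overlapped from each to the next in both libraries. Monocyte or macrophage-like cells were 1.18-fold (0.930 to 1.5) and 1.36-fold (1.05 to 1.76) above MuSC-like cells, an order that turned when every cell was thinned to 1000 UMIs, with a log2 contrast over both libraries summed of -0.09, against 0.35 at full depth. Within this class, Pdgfc was 38.2 and 45.4 CPM in the macrophage cluster led by C1q genes and had 0 UMIs in the cluster led by Elane, Chil3 and Ly6c2, of 19 and 149 cells. Endothelial-like cells had 0 and 1 UMIs of Pdgfc, and Mural-like cells had 0 in both libraries.

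Both protease-activated ligands had their highest FAP-like level in the cluster where Pdgfra was lowest. Pdgfc was 45.3 and 64.1 CPM in the Pi16 and Sema3c cluster, 10.6 and 14.8 CPM in the Gdf10 and Fst cluster and 0.922 and 1.11 CPM in the Cxcl14 and Mme cluster. The Pi16 and Sema3c level was 49.1-fold (23.1 to 125) and 58.0-fold (28.5 to 137) that of the Cxcl14 and Mme cluster, and 4.29-fold (2.88 to 6.53) and 4.33-fold (3.1 to 6.10) that of the Gdf10 and Fst cluster. Pdgfd followed the same order, with the Pi16 and Sema3c cluster 10.2-fold (7.89 to 13.5) and 7.31-fold (5.37 to 10.0) above the Cxcl14 and Mme cluster. The lowest of these counts were the 7 and 8 Pdgfc UMIs of the Cxcl14 and Mme cluster.

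The libraries were then compared within each class. A gene was compared where it had at least 100 UMIs in the class over both libraries, and a ratio of ATRA+agonist to DMSO vehicle was called when it reached 1.5-fold in either direction. Of 21 such ratios for the 6 genes, 1 was called, 4 had an interval above 0 on the log2 scale, 4 had an interval below 0 and 13 had an interval that included 0. The share of all genes called, for reading these counts, was 7.07% in MuSC-like, 6.35% in FAP-like, 10.9% in Tenocyte-like, 8.03% in Endothelial-like, 9.41% in Mural-like, 11.4% in Schwann-like and 8.75% in Monocyte or macrophage-like cells. The ratios of the 6 genes compared were 2, 5, 5, 3, 2, 1 and 3 in those classes in turn. In Perineurial-like cells none of the 6 genes reached 100 UMIs, so no ratio was compared. Of all genes compared there, 22.9% were higher and 42.2% lower, and Malat1 was 5106 against 27018 CPM.

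**Figure D4:**
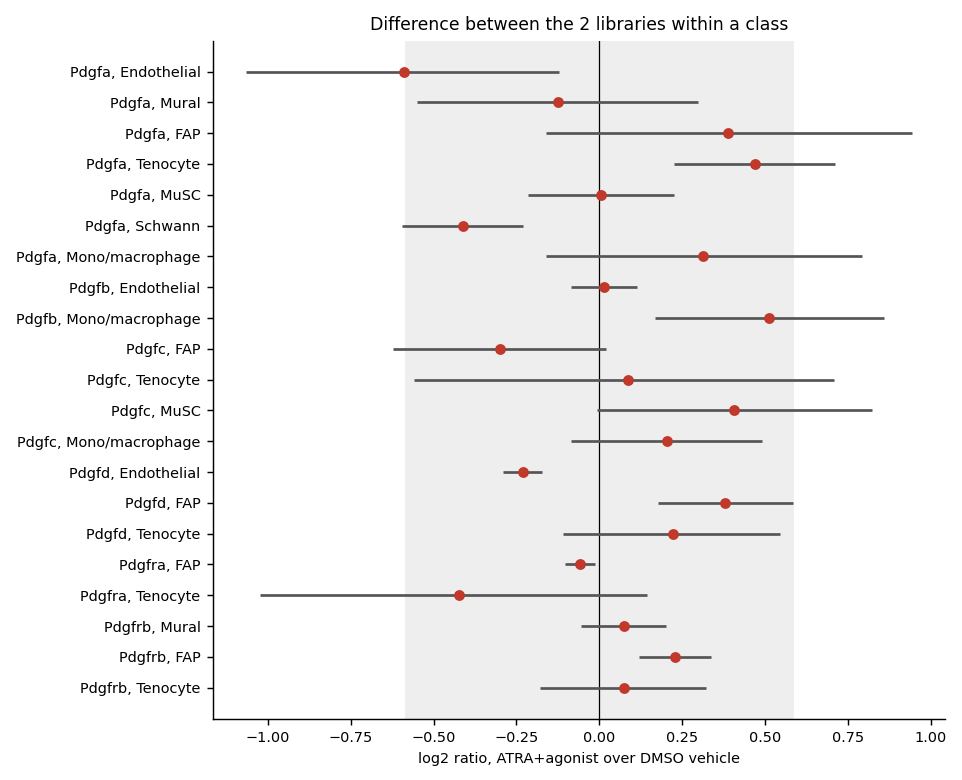
The 21 log2 ratios of ATRA+agonist over DMSO vehicle for PDGF genes with at least 100 UMIs in a class. Points are ratios, lines are exact conditional 95% intervals that cover counting error only, and the grey band marks changes under 1.5-fold. Only Pdgfa in Endothelial-like cells, at -0.59, lay outside the band.

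Both receptors stayed close to their DMSO vehicle levels where they were highest. The log2 ratio of Pdgfra in FAP-like cells was -0.06 (-0.10 to -0.01), and that of Pdgfrb in Mural-like cells was 0.07 (-0.06 to 0.20). Pdgfrb in FAP-like cells was 0.23 (0.12 to 0.34), with 0.27 (0.14 to 0.41) in the Cxcl14 and Mme cluster, 0.23 in the Gdf10 and Fst cluster and 0.03 in the Pi16 and Sema3c cluster. The 17 mural markers, of which 16 and 15 were detected in FAP-like cells, summed to 111 and 112 CPM there, against 21157 and 20915 CPM in Mural-like cells.

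The Endothelial-like class was made of different clusters in the libraries, with 1584 and 687 capillary, 83 and 982 interferon-activated and 1 and 82 venous cells, so its ligands are given within clusters too. Pdgfb had a class log2 ratio of 0.01 (-0.08 to 0.11). Within clusters it was -0.23 (-0.37 to -0.10) in capillary, -0.30 (-0.71 to 0.09) in interferon-activated, 0.21 (-0.17 to 0.59) in arterial and 0.20 (-0.30 to 0.72) in shallow cells, and only the capillary interval did not include 0. Pdgfd had a class ratio of -0.23 (-0.29 to -0.17), and within clusters -0.13 in capillary, -0.10 in interferon-activated, -0.05 in arterial and -0.26 in shallow cells. The class ratio thus exceeded the capillary, interferon-activated and arterial ratios in size. The class ratio was -0.18 when the shallow cluster was left out, an alternative added after the data were seen. Across the other alternatives the class ratio kept its sign, from -0.46 at a doublet rate of 15% to -0.09 when cells were thinned to 1000 UMIs.

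Pdgfa in Endothelial-like cells was the only called ratio, at -0.59 (-1.07 to -0.12) on 62 and 105 UMIs, or 8.61 and 13.0 CPM. It was lower in arterial cells, 29.4 CPM from 19 UMIs against 61.6 CPM from 47 UMIs, and in capillary cells, 5.67 against 11.1 CPM. In the other two clusters, on few counts, the values were 13.6 against 8.28 CPM in shallow cells (8 and 3 UMIs) and 9.69 against 5.89 CPM in interferon-activated cells (3 and 22 UMIs), with intervals that included 0. The ratio was 0.04 once cells were thinned to 1000 UMIs. Of Schwann markers, 13 and 12 of 15 were detected in Endothelial-like cells and summed to 87.9 and 85.5 CPM, and all 17 mural markers but 1 in ATRA+agonist were detected and summed to 432 and 376 CPM.

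In Schwann-like cells the class ratio of Pdgfa was -0.41 (-0.60 to -0.23), but its clusters went opposite ways. The Il1rapl1 cluster was lower in ATRA+agonist, at -0.41 (-0.66 to -0.18), and the other cluster was higher, at 0.34 (0.03 to 0.65). The Il1rapl1 cluster also made up fewer of the Schwann-like cells in ATRA+agonist, 46 of 134 against 180 of 385. Without doublet removal the class ratio was 0.02, so its sign depended on that step. Tenocyte-like cells had a Pdgfa ratio of 0.47 (0.23 to 0.71), MuSC-like cells 0.01 and Mural-like cells -0.12. Schwann markers in Tenocyte-like cells summed to 454 and 414 CPM, against 6609 and 5712 CPM in Schwann-like cells, and their part in the Tenocyte-like ratio was not tested.

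Pdgfd in FAP-like cells had a class ratio of 0.38 (0.18 to 0.59). It was 0.14 (-0.36 to 0.64) in the Cxcl14 and Mme and 0.04 (-0.30 to 0.38) in the Gdf10 and Fst cluster. In the Pi16 and Sema3c cluster Pdgfd was 101 CPM from 248 UMIs in ATRA+agonist and 65.7 CPM from 121 UMIs in DMSO vehicle. That was a log2 ratio of 0.62 (0.31 to 0.95), past 1.5-fold in a cluster where 7.45% of all genes were called. The cluster also made up more of the FAP-like cells in ATRA+agonist, 232 of 1295 against 192 of 1541. The part of this makeup in the class ratio was not tested. The largest single cell gave 5.24% and 9.92% of these UMIs. When cells were thinned to 1000 UMIs the class ratio turned to -0.10. Pdgfc in the same cluster went the other way, at -0.50 (-0.89 to -0.11). In the unnamed cluster led by Dach1, where 35.1% of all genes were called, the Pdgfd ratio was -0.61.

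The ligands of phagocytes were compared within clusters because the makeup of the class differed. Pdgfb had a class ratio of 0.51 (0.17 to 0.86) in Monocyte or macrophage-like cells. The levels were 30 and 24.7 CPM in the C1q cluster (523 and 402 cells) and 11.6 and 10.9 CPM in the Elane, Chil3 and Ly6c2 cluster (19 and 149 cells). Within the C1q cluster the log2 ratio was 0.29 (-0.08 to 0.65), an interval that included 0. Endothelial markers in this class summed to 39.5 and 90.0 CPM, and their part in the Pdgfb ratio was not tested. Pdgfc had a class ratio of 0.20 (-0.08 to 0.49), but -0.25 (-0.53 to 0.04) within the C1q cluster, and the class ratio was also below 0 under 3 alternatives, from -0.22 to -0.14. In MuSC-like cells the Pdgfc ratio was 0.41 (-0.01 to 0.82).

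Over whole libraries, where the makeup of cells enters, Pdgfa was 28.8 CPM (1200 UMIs) in ATRA+agonist and 54.7 CPM (2219 UMIs) in DMSO vehicle, a log2 ratio of -0.93. Schwann-like cells held 26.3% of these UMIs in ATRA+agonist and 49.5% in DMSO vehicle. The whole-library log2 ratios of the others were -0.20 for Pdgfb, -0.11 for Pdgfc, -0.53 for Pdgfd, -0.08 for Pdgfra and -0.14 for Pdgfrb.

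The wider PDGF list held 45 other genes: co-receptors, ligand-processing proteases, binders in matrix and serum, adaptors, negative regulators and immediate target genes. In FAP-like cells 44 of the 45 could be compared, 1 was called higher and 1 lower, beside 1.99% higher and 4.36% lower among all genes, and the median log2 ratio of the list was -0.08 against 0.02 for all genes. In Mural-like cells 27 were compared and 0 were called in either direction, beside 3.44% higher and 5.97% lower among all genes, with a median of 0.07 against 0.01, which was -0.09 over 44 genes at a minimum of 10 UMIs.

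Among co-receptors, Cspg4, the proteoglycan NG2 that binds PDGF-AA, was the gene called higher in FAP-like cells, at 35.6 against 17.3 CPM, a log2 ratio of 1.04 (0.81 to 1.28). A UMI was found in 25.1% and 11.7% of these cells. The ratio was 1.26 in the Cxcl14 and Mme, 0.52 in the Gdf10 and Fst and 1.04 in the Pi16 and Sema3c cluster, the last from 30 and 11 UMIs. Cspg4 is also a pericyte marker, and in Mural-like cells it was 293 and 247 CPM. The summed mural markers in FAP-like cells, 111 and 112 CPM, leave out Cspg4, and the part of mural RNA in its ratio was not tested. Lrp1, an endocytic receptor that binds the beta receptor, was 716 and 740 CPM in FAP-like and 275 and 250 CPM in Mural-like cells. Nrp1, a co-receptor for PDGF and VEGF, was 204 and 228 CPM in FAP-like and 527 CPM in Mural-like cells of each library. Its level was highest in Endothelial-like cells, at 1235 and 1025 CPM. Pdgfrl, a receptor-like gene with no kinase domain, was 55.1 and 57.6 CPM in FAP-like cells and highest in Tenocyte-like cells, at 215 and 177 CPM.

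The proteases that process the ligands differed in where they were found. Plat, the tissue plasminogen activator that cuts PDGF-C, was 100 and 87.4 CPM in FAP-like and 85.7 and 102 CPM in Mural-like cells. Plau, the urokinase that cuts PDGF-D, was 111 and 116 CPM in FAP-like cells but 11.1 and 21.4 CPM in Mural-like cells. Furin and Pcsk5, proprotein convertases that process PDGF-A and PDGF-B, were 41.0 and 48.7 CPM and 131 and 179 CPM in FAP-like cells, the latter a log2 ratio of -0.45. Furin was 57.9 and 49.9 CPM in Mural-like cells and higher, at 212 and 180 CPM, in Monocyte or macrophage-like cells, where the receptors were near 0. None of the compared protease ratios in FAP-like or Mural-like cells reached 1.5-fold.

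Matrix binders held the gene called lower. Thbs1, thrombospondin 1, was 120 CPM in ATRA+agonist and 250 CPM in DMSO vehicle FAP-like cells, a log2 ratio of -1.06 (-1.15 to -0.97), and it was lower in each FAP-like cluster, at -0.99, -1.11 and -1.76. The lower level was not particular to FAP-like cells. Thbs1 was also 1010 against 1478 CPM in Tenocyte-like and 68.2 against 121 CPM in Monocyte or macrophage-like cells. Sparc, a secreted matrix protein that binds PDGF-B, was 1519 and 1013 CPM, a log2 ratio of 0.58 that fell just short of 1.5-fold. Within clusters it was 0.54 in the Cxcl14 and Mme, 0.68 in the Gdf10 and Fst and 0.52 in the Pi16 and Sema3c cluster, of which the Gdf10 and Fst value was past 1.5-fold, in a cluster where 5.99% of all genes were called. In Mural-like cells the Sparc ratio was 0.41, and in Tenocyte-like cells Sparc was 3392 and 1549 CPM. Hspg2, perlecan, was 410 and 348 CPM in FAP-like and 156 and 149 CPM in Mural-like cells. Ndst1, a heparan sulfate enzyme, was 53.5 and 52.1 CPM in FAP-like cells. A2m, alpha-2-macroglobulin, was the gene not compared there, with 2 and 0 UMIs. In Mural-like cells the lowest of the 27 ratios was that of the immediate target Fos, -0.54 at 2925 and 4260 CPM, and Egr1 was -0.43.

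**Figure D5:**
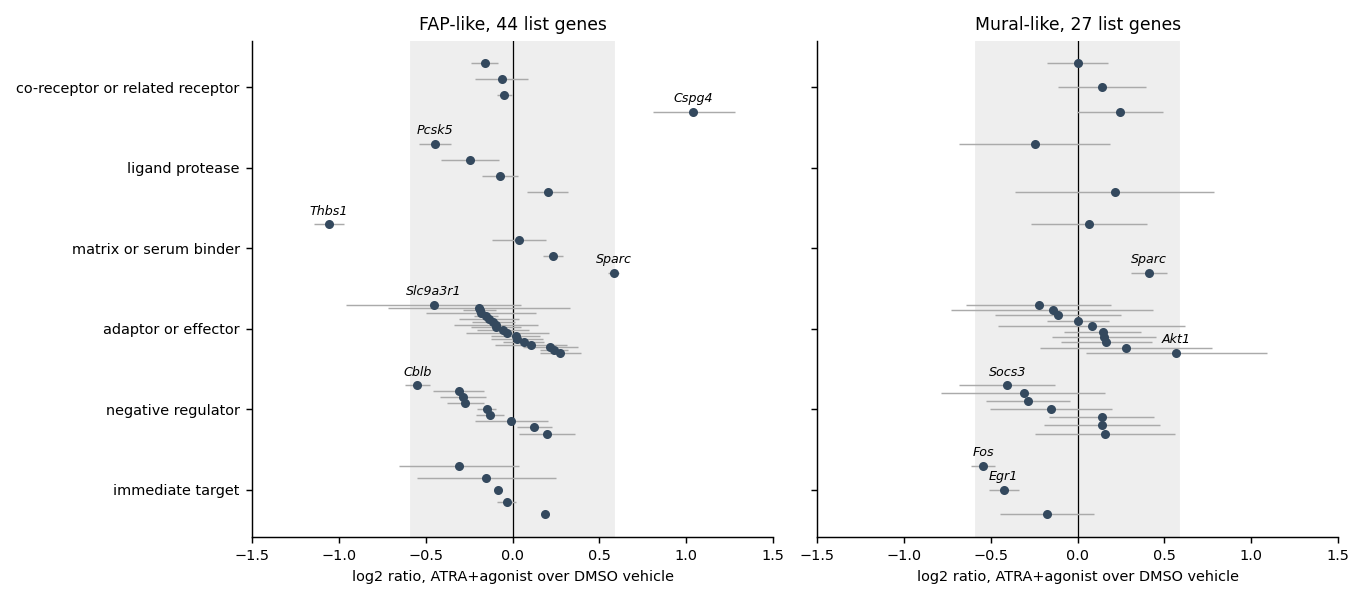
Log2 ratios of ATRA+agonist over DMSO vehicle for the wider PDGF list by role, in FAP-like cells (44 genes, left) and Mural-like cells (27 genes, right). Points are ratios, lines are exact conditional 95% intervals and the grey band marks changes under 1.5-fold. Cspg4 (1.04) and Thbs1 (-1.06) lie outside the band in FAP-like cells, and no gene does in Mural-like cells.

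The genes with the most similar pattern of levels were searched among 11253 genes, by Pearson r of log2(CPM + 10) over 20 points, which were the 10 classes in each library. Points of the same class share cell type and points of a library share depth and preparation, so r describes these libraries only. The 3 most similar genes were Adgrd1 (0.98), Tspan11 (0.98) and Inmt (0.98) for Pdgfra, and Tbx18 (0.98), Adcy3 (0.97) and Bmp5 (0.97) for Pdgfrb. For the endothelial ligands they were Castor1 (0.96), Jam2 (0.94) and Tspan9 (0.94) for Pdgfd, and Itpripl1 (0.91), Scarb1 (0.90) and Arhgap31 (0.89) for Pdgfb. Pdgfa was closest to Sox6 (0.93), Mtss2 (0.93) and Acp6 (0.91). Pdgfc, spread over unrelated classes, had the loosest matches, in Nfil3 (0.87), Prkag2 (0.87) and Arhgap22 (0.85).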

How the data were processed

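Raw UMI counts per gene and barcode were deposited by the authors as 1 matrix per library, made with Cell Ranger 7.2.0 per the file headers against mm10, from live-sorted cells and a 3′ kit. Whether intronic reads were counted was not given in the sources used here. The counts were not normalized by the authors. Positions of the genes are from the GENCODE annotation of GRCm38.

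Cells with 300 to 5000 genes, under 20% mitochondrial UMIs and under 0.25% Hbb- UMIs were kept, as in the study's methods. Doublets were scored against artificial doublets and 7.5% of each library was removed. Counts scaled to 10000 per cell and 2000 variable genes gave 30 components, 20 neighbours and Louvain clusters at resolution 0.8 (Python 3.11.15, numpy 2.4.6, scipy 1.17.1, scikit-learn 1.9.0, python-igraph 0.11.9, pandas 2.3.3). A cluster was named when at least 3 markers of a class had 10 UMIs and were 2-fold enriched. These limits, the shallow endothelial group (median UMIs times 3 below the library's median) and leaving Perineurial-like cells out of contrasts were chosen after the clusters were seen.

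Counts were summed over cells of a class in each library, 1 library per group. Named genes are the 6 members, list genes that were called, co-receptors, proteases and matrix binders with at least 100 UMIs, and for each member the 3 genes of most similar pattern among those with at least 500 UMIs. Members and lists were chosen with earlier results of these data known. Thresholds, doublets, clustering, scaling and depth were varied one at a time. The interval code was tested on simulated data.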

Additional observations from a re-analysis of the deposited data

Results flagged for a closer look

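The Pdgfa ratio of ATRA+agonist over DMSO vehicle went opposite ways in 3 clusters whose intervals did not include 0. On the log2 scale it was 0.47 in the Tenocyte-like cluster, -0.41 in the Schwann-like cluster led by Il1rapl1, and 0.34 in the other Schwann-like cluster. Pdgfd likewise was 0.62 in the Pi16 and Sema3c cluster of FAP-like cells, -0.13 in capillary endothelial-like cells and -0.61 in the unnamed cluster led by Dach1. The differences between these clusters were not tested, since each group was 1 library.

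Barcodes left out of the comparisons also carried PDGF transcripts, some above and some below the DMSO vehicle level. In the barcodes called doublets, 560 and 564 in number, Pdgfa was 88.5 CPM in ATRA+agonist against 37.5 CPM in DMSO vehicle, Pdgfb was 86.3 against 47.1 CPM and Pdgfd was 234 against 175 CPM. In the same barcodes Pdgfra was 79.3 against 205 CPM, Pdgfrb was 45.8 against 80.3 CPM and Pdgfc was 3.64 against 5.8 CPM. In the barcodes with over 5000 genes, 76 and 75 in number, Pdgfa was 86.3 against 56.2 CPM and Pdgfrb was 72.7 against 46.1 CPM, while Pdgfd was 38.8 against 50.3 CPM. In those over the hemoglobin limit, 357 and 1725 in number, Pdgfa was 14.8 against 20.1 CPM and Pdgfd was 58.0 against 107 CPM. These sets mix cell types, and their makeup was not compared.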

How the results depend on the processing

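Over 34 results, 411 alternatives were computed, of which 351 stayed within the counting interval of the reported value, 56 moved beyond it and 4 turned the sign of a value whose interval did not include 0. Values whose interval included 0 changed sign under other alternatives too, among them Pdgfb in Endothelial-like, Pdgfc in Monocyte or macrophage-like and Pdgfrb in Mural-like cells. Contrasts between classes or clusters are over both libraries summed. No paired analysis was possible because each group was 1 library and no test was made. The cause of the moves below was not tested. Thinning cells to 1000 UMIs, which leaves out shallower cells, gave log2 ratios of -0.63 for Pdgfa in Schwann-like, 0.04 for Pdgfa and -0.09 for Pdgfd in Endothelial-like, and -0.16 for Pdgfra and -0.10 for Pdgfd in FAP-like cells, and log2 contrasts of -0.09 for Pdgfc in Monocyte or macrophage-like over MuSC-like cells, 2.63 for Pdgfd in Endothelial-like over Tenocyte-like cells, 2.43 for Pdgfrb in Mural-like over Tenocyte-like cells, 1.49 for Pdgfd in arterial over capillary cells and 0.96 for Pdgfra in the Gdf10 and Fst over the Pi16 and Sema3c cluster. Without doublet removal, Pdgfa in Schwann-like cells was 0.02, and the contrasts were 0.74 for Pdgfc, 2.40 for Pdgfrb and 0.68 for Pdgfra between FAP-like clusters. A doublet rate of 15% gave -0.63 for Pdgfa in Schwann-like, -0.09 for Pdgfb and -0.46 for Pdgfd in Endothelial-like and -0.22 for Pdgfc in Monocyte or macrophage-like cells, and contrasts of 0.87 for Pdgfc and 1.53 for arterial over capillary Pdgfd. With no upper limit on genes the ratios were -0.71 for Pdgfa in Schwann-like, -0.21 for Pdgfc in Monocyte or macrophage-like and -0.31 for Pdgfd in Endothelial-like cells. Without the hemoglobin filter they were -0.14 for Pdgfc and 0.26 for Pdgfrb in Mural-like cells. Assigning cells by their own markers gave -0.11 for Pdgfb and -0.30 for Pdgfd in Endothelial-like cells, and contrasts of 1.66 for Pdgfa, 0.69 for Pdgfc, 3.12 for Pdgfra and 2.60 for Pdgfrb. Means of log-normalized values gave -0.20 for Pdgfa in Schwann-like, -0.12 for Pdgfb and -0.32 for Pdgfd in Endothelial-like and -0.07 for Pdgfrb in Mural-like cells. Pdgfd in Endothelial-like cells was also -0.32 under 10% mitochondrial UMIs, -0.29 at resolution 0.4, -0.31 with the PDGF genes kept for clustering and -0.30 with median-of-ratios scaling. A minimum of 500 genes gave 0.88 and resolution 1.6 gave 0.84 for the Pdgfc contrast, and resolution 1.6 gave 1.62 for arterial over capillary Pdgfd. Depth limits Pdgfc and all genes in smooth muscle-like cells.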
